A study of Mus musculus with 2 samples.

Results

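The genes examined were 34 genes of antioxidant defence: the transcription factor NRF2 (gene Nfe2l2) and its inhibitor KEAP1, enzymes that NRF2 is known to induce, the peroxiredoxins, the superoxide dismutases, catalase, the glutathione peroxidases, and genes of the glutathione and thioredoxin systems. They were chosen by name, and each matched 1 row, by its Ensembl identifier, among the 31053 genes counted. The study profiled single lung cells from C57BL/6JRj mice aged 3 months (young) or 18 months (old), 24 h after saline (control) or 2.5 mg LPS per kg body weight, a treatment that the labels call lung injury. LPS is lipopolysaccharide, a component of the outer membrane of Gram-negative bacteria. Lungs were lavaged and digested with dispase, airways filled with agarose were removed, and cells that carried the epithelial surface protein EpCAM and excluded the dye DAPI were sorted. Each of the 4 groups (young control, young LPS, old control and old LPS) was marked with its own hashtag antibody, the 4 were pooled on 1 lane of a 10x Genomics 3′ assay, and the whole experiment was done a second time on a second lane. This gave 8 libraries, 2 per group, named here by group and lane (young control 1, young control 2 and so on). The labels call the second lane an independent biological replica experiment and give neither the number of mice behind a library nor their sex. So p-values measure the spread between 2 libraries of a group, estimated together over the 4 groups of a fit. That spread was also drawn toward the trend over genes, so a call at 1 age can depend on libraries of the other. A ± value is the approximate SE of a fitted log2 change.

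Reactive oxygen species are removed in steps. Superoxide dismutases turn superoxide into hydrogen peroxide, which catalase, the peroxiredoxins and the glutathione peroxidases reduce to water. Peroxiredoxins are recharged by thioredoxin, and glutathione peroxidases by glutathione. Thioredoxin reductase and glutathione reductase restore these with NADPH. NRF2 is held low by KEAP1, which presents it for degradation. Oxidants and electrophiles modify KEAP1, and NRF2 then binds antioxidant response elements near genes for glutathione synthesis, thioredoxin and detoxification. Alveolar type 2 (AE2) cells, which make surfactant and face inhaled oxygen, are known for high levels of peroxiredoxin 6, which also takes part in surfactant phospholipid turnover.

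The core letters of an antioxidant response element, TGACNNNGC, were looked for on both strands of RefSeq promoter windows (GRCm38.p6, 250 bases before to 50 bases after a gene's start). Of the 34 genes, 29 had a window and 9 of these (31.0%) held the letters, against 14% of 27025 gene symbols in the same table; Gclc, Prdx6, Sod3, Gsr and Gsta4 had no entry. The match is a description of letters and not a site known to be bound. The first 5 stretches below belong to genes whose RNA was higher after LPS in at least 1 comparison of AE2-like cells, and the last to a gene that did not pass the test in AE2-like, ciliated-like or club-like cells. Each is written 5′ to 3′ along the gene, the matching letters in capitals (a match on the opposite strand reads GCNNNGTCA) with 20 bases on each side.
Gclm (chr3:122245403-122245451, letters starting 134 bases before the start site): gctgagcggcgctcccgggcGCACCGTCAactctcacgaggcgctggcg
Txnrd1 (chr10:82859094-82859142, letters starting 92 bases before the start site): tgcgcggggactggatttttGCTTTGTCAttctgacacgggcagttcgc
Prdx1 (chr4:116685446-116685494, letters starting 133 bases before the start site): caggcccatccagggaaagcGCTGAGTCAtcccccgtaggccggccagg
Mgst1 (chr6:138140451-138140499, letters starting 56 bases before the start site): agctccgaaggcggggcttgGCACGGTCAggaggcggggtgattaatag
Gsta3 (chr1:21240444-21240492, letters starting 121 bases before the start site): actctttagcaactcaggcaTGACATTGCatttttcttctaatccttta
Sod1 (chr16:90220686-90220734, letters starting 56 bases before the start site): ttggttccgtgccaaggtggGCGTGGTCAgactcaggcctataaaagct
The windows of Nfe2l2, Srxn1 and G6pdx also held the letters. So the letters were found both beside genes that rose and beside genes that did not pass the test. AP-1 letters can overlap them and were not searched.

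The 8 libraries held 14048 barcodes and 85889264 UMIs (unique molecular identifiers, each counting 1 captured RNA molecule), from 6228266 to 15435789 per library. No barcode was shared within a lane, and 2 barcode sequences occurred in both lanes. After removal of barcodes with under 500 genes or over 20% mitochondrial UMIs, 11232 cells were clustered, and clusters were named from marker genes: 8873 cells (79.0%) in 10 clusters were AE2-like, 904 (8.05%) in 2 clusters ciliated-like and 175 (1.56%) in 1 cluster club-like. The doublet caller marked 13 cells, too few to be taken as working, so each result was also computed without the 3% of cells with the highest doublet scores. UMIs were summed over the cells of a class in a library, and values are given in CPM (the gene's UMIs relative to all UMIs of the class in that library, in the usual unit, with TMM scaling). Marker sums, and levels pooled over libraries by cluster or by class, had no TMM scaling. CPM from a 3′ assay is not divided by gene length, since 1 RNA gives 1 tag whatever its length. The labels call the source AE2 cells. The 12 ciliated markers summed to 14955 to 16849 CPM in ciliated-like libraries. In AE2-like libraries they summed to 76.1 to 90.1 CPM in control and 26.1 to 37.5 in LPS libraries. The 8 club markers summed to 517330 to 665843 CPM in club-like libraries. Of the 34 genes, 7 were among the 2000 variable genes used for clustering, so the classes were also rebuilt without the 34. In that rebuild the naming rule left unnamed a cluster of 902 cells led by Saa3 and Orm1, which scored highest for AE2 markers. AE2-like cells fell from 1277 to 881 in old LPS 1 and from 1422 to 1065 in old LPS 2. So a call lost in the rebuild was also computed on fewer LPS cells. With clusters named by marker score alone, these libraries again had 1277 and 1422 AE2-like cells.

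In AE2-like and ciliated-like cells most control and LPS cells lay in different clusters, while club-like cells of both treatments formed 1 cluster. Of AE2-like cells, 99.2% of control and 11.6% of LPS cells lay in clusters 0, 1, 5, 14 and 18, and the other LPS cells lay in clusters led by Saa3 and Orm1 (cluster 2), Itih4 and Cyp2b10 (3), Gbp2 and Cxcl10 (4), Igtp and Iigp1 (6) or Csf3 and Cxcl2 (7). Clusters 0, 1, 5, 14 and 18 were picked for their share of control cells, so the 99.2% is partly built in. The library old LPS 2 stood apart from its replicate: 24.8% of its AE2-like cells lay in these clusters, against 3.7% in old LPS 1, 4.4% in young LPS 1 and 10.5% in young LPS 2. Of those 353 cells of old LPS 2, 267 lay in cluster 5, which mixed cells of both treatments. The 10 AE2 markers (Sftpc and others), all detected, summed to 277406 to 315404 CPM in control and 86709 to 123987 in LPS AE2-like libraries. Alveolar macrophage markers (10 genes) summed to 11.9 to 24.6 CPM in control and 64.9 to 74.5 in LPS AE2-like libraries, platelet markers (6 genes, 2 at 0) to 15.2 to 24.3 and 133 to 203, and neutrophil markers (9 genes) to 2.03 to 3.79 and 1.75 to 4.27. Monocyte and macrophage markers (10 genes, 1 at 0) were lower after LPS, at 21.1 to 46.1 CPM in control and 9.25 to 19.2 in LPS libraries. Their part in the results was not tested.

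In AE2-like cells LPS moved most of these genes, mainly upward, at both ages. Of 32 genes that passed the filter on low counts, 17 were higher and 3 lower in young mice, and 18 were higher and 2 lower in old mice (edgeR quasi-likelihood test, Benjamini-Hochberg adjusted p under 0.05 over 11413 genes). Of all genes tested, 21.8% were higher and 18.2% lower in young and 25% and 23% in old mice. The 20 called genes were 62.5% of the 32 at each age, beside 40% and 48% of all genes tested. Among them, Slc7a11 at both ages and Gpx3 in old mice passed the filter only through LPS libraries. The median log2 fold change of the 32 was 0.41 at both ages, and that of all genes was -0.011. In each comparison the 2 LPS libraries lay outside the range of the 2 control libraries for 20 of the 20 called genes, and 20 of 20 in old mice and 19 of 19 in young mice moved the same way within each lane (Slc7a11 had no UMI in young control 1). The genes were called from these same libraries, so the counts describe the calls and are no separate support. Nqo1 and Sod3 did not pass the filter: NQO1, a quinone reductase often used to read NRF2 activity, was at 0.550 to 2.36 CPM and Sod3, the extracellular superoxide dismutase, at 0 to 0.620 CPM in the 8 libraries.

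**Figure D1:**
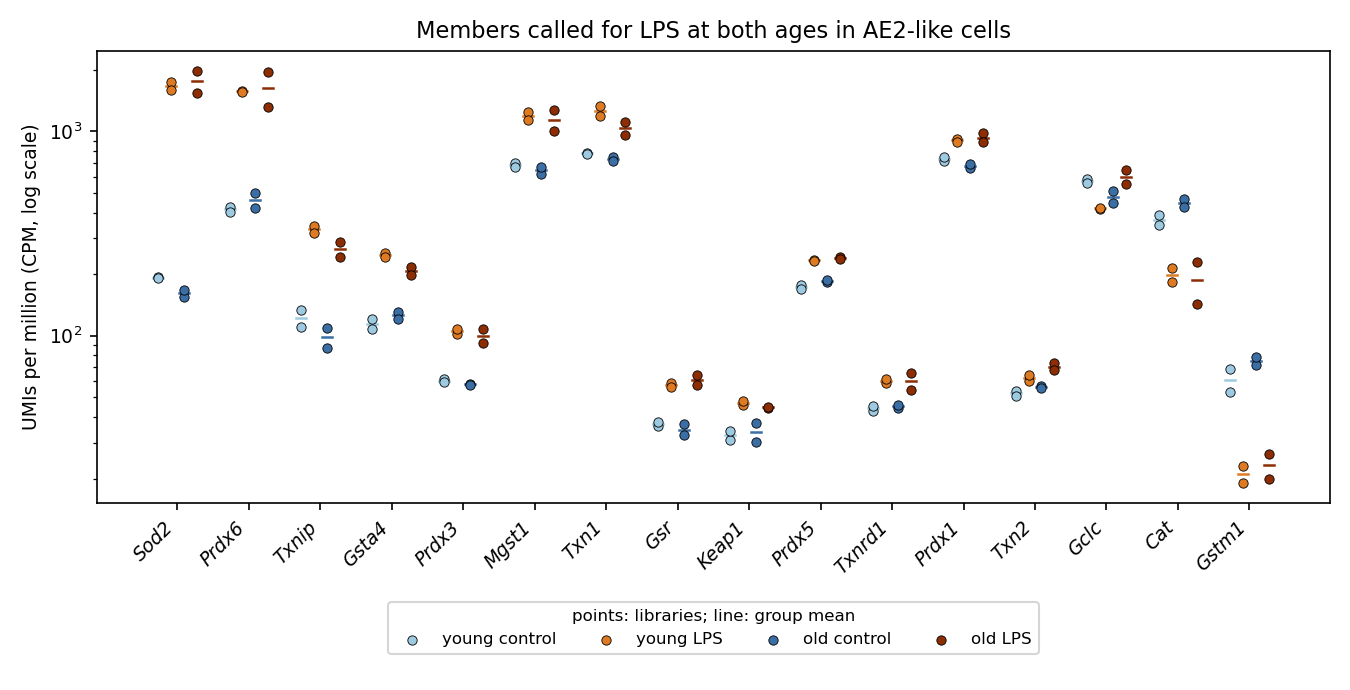
CPM (log axis) in the 8 AE2-like libraries of the 16 genes called for LPS at both ages, Slc7a11 left out for its low counts; each point is 1 library, and the 2 points of a group are its 2 lanes. Sod2 is near 155 to 193 CPM in control and at 1545 to 1962 CPM in LPS libraries, and Cat and Gstm1 are the genes whose LPS points lie below their control points at both ages.

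Sod2 rose and Cat fell with LPS at both ages, and Sod1 was not called. Sod2 (manganese superoxide dismutase of mitochondria; chr17:13006846-13040063, GRCm38) was at 193 and 191 CPM in young control 1 and 2, 1734 and 1596 in young LPS, 155 and 166 in old control and 1962 and 1545 in old LPS. Every LPS library was above every control library. The log2 fold change was 3.12 ± 0.12 (adjusted p = 9.54e-12) in young and 3.44 ± 0.12 (adjusted p = 3.58e-12) in old mice, that is 8.67-fold and 10.9-fold. Catalase, which splits hydrogen peroxide in peroxisomes, went the other way: Cat was at 390.0 and 346 CPM in young control 1 and 2, 182 and 215 in young LPS, 465 and 427 in old control and 143 and 229 in old LPS. All 4 LPS libraries were below all 4 controls. The log2 fold change was -0.89 ± 0.22 (adjusted p = 0.0179) in young and -1.26 ± 0.22 (adjusted p = 0.00339) in old mice. The fall in young mice did not pass the test without young control 1 or young LPS 1 (adjusted p = 0.0654, 0.0922). Sod1, the cytosolic copper-zinc enzyme, stayed within 127 to 141 CPM over the 8 libraries and was not called (log2 fold change 0.004 ± 0.092 in young and 0.034 ± 0.09 in old mice).

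Of the 6 peroxiredoxins, 4 rose at both ages. Prdx6, the member that uses glutathione and also acts on surfactant phospholipids (chr1:161240112-161251219), was at 425 and 403 CPM in young control 1 and 2, 1574 and 1554 in young LPS, 499 and 423 in old control and 1954 and 1311 in old LPS. Its LPS and control libraries did not overlap. On the log2 scale the change was 1.92 ± 0.17 (adjusted p = 3.8e-05) in young and 1.82 ± 0.17 (adjusted p = 3.91e-05) in old mice. Prdx3, the mitochondrial peroxiredoxin, was at 61.1 and 59.3 (young control), 102 and 108 (young LPS), 58.03 and 57.5 (old control) and 108 and 91.7 CPM (old LPS). All LPS libraries were above all controls, with a log2 fold change of 0.81 ± 0.10 (adjusted p = 1.43e-05) in young and 0.79 ± 0.10 (adjusted p = 1.15e-05) in old mice. Prdx5, found in mitochondria, peroxisomes and cytosol, was at 176 and 168 (young control), 235 and 232 (young LPS), 183 and 186 (old control) and 241 and 237 CPM (old LPS). It rose by 0.44 ± 0.087 and 0.37 ± 0.086 on the log2 scale (adjusted p = 0.000879 and 0.00221).

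Prdx1, a cytosolic peroxiredoxin and known NRF2 target, was at 717 and 750.5 (young control), 915 and 888 (young LPS), 659 and 691 (old control) and 976 and 882 CPM (old LPS). Its groups did not overlap at either age. This was a log2 change of 0.30 ± 0.089 (adjusted p = 0.0146) in young and 0.46 ± 0.089 (adjusted p = 0.000545) in old mice. The call in young mice was lost without young control 1, young control 2, young LPS 1 or young LPS 2 (adjusted p = 0.136, 0.063, 0.0988, 0.0556). Prdx2 (cytosolic; 165 to 201 CPM) and Prdx4 (endoplasmic reticulum; 48.8 to 69.9 CPM) were not called. Srxn1, the sulfiredoxin that repairs over-oxidised peroxiredoxins and a known NRF2 target, was at 5.39 to 10.3 CPM and was not called at either age, with a log2 fold change of -0.063 ± 0.24 (adjusted p = 0.861) in young and 0.46 ± 0.22 (adjusted p = 0.0927) in old mice. Without old LPS 2 it was 0.69 in old mice (adjusted p = 0.0125).

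The cytosolic thioredoxin pair rose together with the inhibitor of thioredoxin. Txnip, which binds and blocks thioredoxin, was at 109.9 and 133 CPM in young control 1 and 2, 345 and 316 in young LPS, 87.3 and 109 in old control and 288 and 243 in old LPS. The LPS libraries were all above the controls. LPS over control gave a log2 fold change of 1.44 ± 0.13 (adjusted p = 6.52e-07) in young and 1.43 ± 0.13 (adjusted p = 5.62e-07) in old mice. Txn1, cytosolic thioredoxin, was at 786 and 769.9 (young control), 1326 and 1186 (young LPS), 747 and 715 (old control) and 1115 and 953 CPM (old LPS). It rose by 0.69 ± 0.10 in young and 0.50 ± 0.10 in old mice on the log2 scale (adjusted p = 4.1e-05 and 0.000579), again with no overlap. Txnrd1, the cytosolic thioredoxin reductase and a known NRF2 target, was at 43.04 and 45.2 (young control), 58.5 and 61.2 (young LPS), 44.3 and 45.9 (old control) and 65.9 and 54.2 CPM (old LPS). Its log2 fold change was 0.44 ± 0.11 (adjusted p = 0.00618) in young and 0.41 ± 0.11 (adjusted p = 0.0056) in old mice. The call was lost in young mice without young control 1 (adjusted p = 0.0586) and in old mice without old control 1 (adjusted p = 0.0505).

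Txn2, the mitochondrial thioredoxin, was at 53.9 and 50.7 (young control), 60.3 and 64.2 (young LPS), 56.6 and 55.2 (old control) and 73.2 and 68.1 CPM (old LPS). It passed the test in young mice at the threshold, with a log2 fold change of 0.26 ± 0.10 (adjusted p = 0.0499), and in old mice with 0.34 ± 0.10 (adjusted p = 0.00831). The young call was lost without young control 1, young control 2, young LPS 1, young LPS 2, old control 1 or old control 2 (adjusted p = 0.105, 0.262, 0.0895, 0.235, 0.0748, 0.0855), with DESeq2 (adjusted p = 0.241) and under 4 other settings, and the old call without old control 2 (adjusted p = 0.0697) and with DESeq2 (adjusted p = 0.07). Glrx, a glutaredoxin that removes glutathione from proteins, rose in young mice, from 107 and 109.6 to 144 and 138 CPM (log2 fold change 0.38 ± 0.10, adjusted p = 0.00486), and was not called in old mice, where it was at 91.7 and 104 CPM in control and 102 and 97.2 in LPS libraries (0.029 ± 0.094, adjusted p = 0.821). The young call was lost without young control 1 (adjusted p = 0.0545).

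Among genes of glutathione supply, Slc7a11 rose at both ages, and Gclc fell in young and rose in old mice. Slc7a11, the cystine carrier that feeds glutathione synthesis, was close to absent from control AE2-like cells: 0 and 1 UMI in young control 1 and 2 and 2 and 1 in old control, against 16 and 18 in young LPS and 21 and 23 in old LPS. The ratio per UMI sequenced was 23.7 (95% interval 3.97 to 961, exact, counting error only) in young and 8.61 (2.76 to 43.3) in old mice, and it was called higher at both ages (adjusted p = 0.000535 and 0.000819). Slc7a11 passed the filter on low counts only through LPS libraries, so it entered the test because it was high there. At 1.80 to 2.10 CPM in LPS libraries it was far below its level in the alveolar macrophage-like cells (147 CPM) and neutrophil-like cells (323 CPM) of the LPS libraries, and alveolar macrophage markers were higher in the LPS sums of AE2-like cells. Their part was not tested.

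Gclc, the catalytic subunit of the enzyme that sets the rate of glutathione synthesis (chr9:77754535-77794485), was at 581 and 558 CPM in young control 1 and 2, 417 and 423 in young LPS, 447 and 508 in old control and 645 and 550.2 in old LPS. In young mice both LPS libraries were below both controls, and in old mice both were above. The log2 fold change was -0.44 ± 0.10 (adjusted p = 0.00243) in young and 0.32 ± 0.10 (adjusted p = 0.0139) in old mice, and the old call was lost without old control 1 or old LPS 1 (adjusted p = 0.157, 0.075) and when the classes were rebuilt without these genes (adjusted p = 0.104). Gclm, the regulatory subunit of the same enzyme, was at 20.2 and 23.3 (young control), 31.2 and 30.5 (young LPS), 28.8 and 24.9 (old control) and 46.1 and 30.6 CPM (old LPS). It was higher in LPS libraries at both ages, by 0.49 ± 0.19 (adjusted p = 0.0611) in young and 0.52 ± 0.17 (adjusted p = 0.0277) in old mice on the log2 scale, of which the second passed the test. With the lane as a block the young value passed as well (0.47, adjusted p = 0.0422), and the old call was lost without old control 1, old control 2 or old LPS 1 (adjusted p = 0.0532, 0.189, 0.212) and with DESeq2 (adjusted p = 0.0546). Gss, which completes glutathione, was at 11.01 to 15.6 CPM and was not called.

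Gsr, the reductase that restores glutathione, was at 36.1 and 37.9 (young control), 58.99 and 56.2 (young LPS), 32.6 and 36.8 (old control) and 64.2 and 57.1 CPM (old LPS). All LPS libraries were above all controls, and it rose by 0.63 ± 0.11 in young and 0.80 ± 0.11 in old mice on the log2 scale (adjusted p = 0.000315 and 1.85e-05). G6pdx, the first enzyme of the pentose phosphate pathway and a source of NADPH, was at 12.7 to 19.6 CPM and was not called. Among the glutathione peroxidases, Gpx4, which reduces lipid peroxides, rose in young mice from 909 and 865 to 1168 and 1143 CPM (log2 fold change 0.38 ± 0.086, adjusted p = 0.00226). In old mice it was at 891 and 864 CPM in control and 949 and 1004 in LPS libraries (0.15 ± 0.086, adjusted p = 0.149). Gpx1, the common cytosolic form, at 284 to 383 CPM, was not called. Gpx2, known as an epithelial form, was at 8.66 to 10.6 CPM in control libraries and at 23 CPM in old LPS 1 against 9.25 to 11.1 in the other 3 LPS libraries. It was not called, but without old LPS 2 it was 1.15 on the log2 scale in old mice (adjusted p = 3.07e-06). Ciliated-like cells, the class with the most Gpx2, were 15.3% of the cells of old LPS 1 and 6.13% of those of old LPS 2. Ciliated markers in the AE2-like sums went the other way, at 26.1 CPM in old LPS 1 and 37.5 in old LPS 2. The part of free RNA from ciliated-like cells was not tested. Gpx3, the secreted form, was called in old mice (1.73 ± 0.66, adjusted p = 0.045) and was at 0.480 and 0.670 (young control), 1.57 and 0.220 (young LPS), 1.08 and 0.370 (old control) and 3.09 and 1.65 CPM (old LPS). The call was lost without young control 1, young control 2, old control 1, old control 2 or old LPS 1 (adjusted p = 0.0763, 0.0769, 0.0541, 0.314, 0.206) and with DESeq2 (adjusted p = 0.127). Gpx3 also passed the filter on low counts only through LPS libraries.

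Of the transferases that join glutathione to reactive compounds, Gsta4 and Mgst1 rose and Gstm1 fell at both ages. Gsta4, which clears the lipid peroxidation product 4-hydroxynonenal, was at 120.0 and 107 CPM in young control 1 and 2, 254 and 242 in young LPS, 131 and 121 in old control and 217 and 199 in old LPS. Its libraries did not overlap. The fitted log2 fold change was 1.13 ± 0.10 (adjusted p = 2.16e-07) in young and 0.72 ± 0.10 (adjusted p = 1.81e-05) in old mice. Mgst1, a membrane-bound transferase, was at 699 and 670.1 (young control), 1239 and 1133 (young LPS), 618 and 669.7 (old control) and 1272 and 1000.4 CPM (old LPS). It rose by 0.79 ± 0.11 and 0.82 ± 0.11 on the log2 scale (adjusted p = 3.2e-05 and 1.8e-05). Gstm1, of the mu family, fell: it was at 69.01 and 52.8 CPM in young control 1 and 2, 23.1 and 19.1 in young LPS, 72.04 and 78.97 in old control and 20 and 26.5 in old LPS. All LPS libraries were below all controls. Its log2 fold change was -1.52 ± 0.17 (adjusted p = 1.34e-05) in young and -1.70 ± 0.15 (adjusted p = 1.94e-06) in old mice. Gstm1 was at 1740 CPM in ciliated-like controls, and ciliated markers were lower in the LPS than in the control sums of AE2-like cells. The part of ciliated RNA was not tested.

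Gsta3, an alpha transferase and known NRF2 target, was at 33.9 and 33.8 (young control), 56.4 and 56.8 (young LPS), 46.5 and 48.9 (old control) and 65.7 and 43.6 CPM (old LPS). It rose in young mice (0.74 ± 0.17, adjusted p = 0.00467), a call lost without young control 2 (adjusted p = 0.0581), and was not called in old mice (0.19 ± 0.16, adjusted p = 0.337), where the 2 LPS libraries lay on either side of the controls. Without old LPS 2 it was 0.47 (adjusted p = 0.000343). Gstp1 was at 1.92 to 14.8 CPM, higher in lane 2 than in lane 1 in each of the 4 groups, and was not called. With the lane as a block it was 1.34 in young mice (adjusted p = 0.000373). Gstp1 has a near-identical neighbour, Gstp2, and reads that match both cannot be told apart, so its level is uncertain.

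Of the 2 regulators, Keap1 rose at both ages and Nfe2l2 in old mice. Keap1, the adaptor that presents NRF2 for degradation, was at 31.02 and 34.2 (young control), 45.8 and 48.01 (young LPS), 37.6 and 30.2 (old control) and 44.3 and 44.8 CPM (old LPS). Its groups did not overlap. The log2 fold change was 0.52 ± 0.12 (adjusted p = 0.00315) in young and 0.40 ± 0.12 (adjusted p = 0.00959) in old mice. The old call was lost without old control 2 (adjusted p = 0.177) and with DESeq2 (adjusted p = 0.0673). Nfe2l2 was at 177 and 161 CPM in young control 1 and 2, 163 and 153 in young LPS, 144 and 153 in old control and 213 and 195 in old LPS. In old mice both LPS libraries were above both controls, with a log2 fold change of 0.46 ± 0.094 (adjusted p = 0.000871). In young mice the libraries overlapped (-0.091 ± 0.10, adjusted p = 0.48). The RNA of NRF2 and KEAP1 does not report the amount or activity of the proteins.

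**Figure D2:**
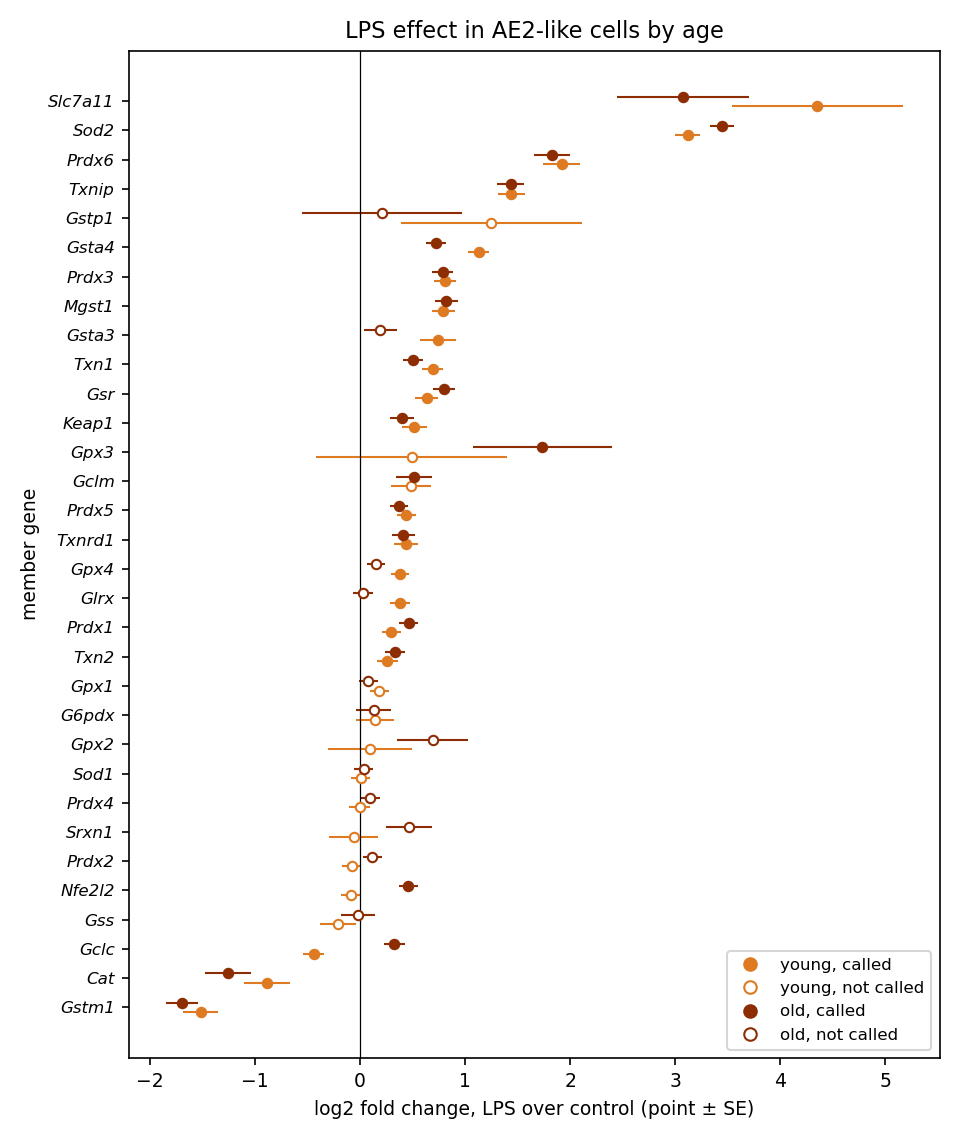
Log2 fold change of LPS over control in AE2-like cells, young and old mice side by side, for the 32 tested genes; points are edgeR estimates, bars 1 SE, and filled points passed the test. The 2 estimates lie close together for most genes, while Gclc lies below 0 in young and above 0 in old mice.

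Age was compared first without LPS. In control AE2-like cells 0 of 32 were called between old and young mice (edgeR; 0.622% of all genes were called), 6 had an unadjusted p under 0.05 and DESeq2 called 0. The lowest adjusted p was that of Prdx4, at 65.4 and 69.9 CPM in young and 48.8 and 52.4 in old controls (log2 difference -0.42 ± 0.10, adjusted p = 0.0835). It passed without old LPS 1 (adjusted p = 0.00816) or old LPS 2 (0.00841), as did Gsta3 (adjusted p = 0.00465 and 0.00487). So the 0 of the comparison became 2 when either library was left out. Club markers (8 genes) summed to 2010 and 1745 CPM in young control, 4994 and 4151 in old control, 687 and 895 in young LPS and 2222 and 3991 in old LPS AE2-like libraries, higher in old than in young mice under both treatments. Their part in the age comparisons was not tested.

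After LPS, 2 genes were higher and 1 lower in old than in young AE2-like cells (1.64% and 2.42% of all genes, 4.06% in all). Gclc was at 417 and 423 CPM in young and 645 and 550.2 in old LPS libraries, a log2 difference of 0.51 ± 0.10 (adjusted p = 0.00847). Nfe2l2 was at 163 and 153 CPM in young and 213 and 195 in old LPS libraries (0.36 ± 0.094, adjusted p = 0.039). Glrx was at 144 and 138 CPM in young and 102 and 97.2 in old, lower in old mice (-0.49 ± 0.092, adjusted p = 0.0061). In each case the 2 ages did not overlap, and the difference had the same sign in both lanes, in the same libraries that gave the calls. The calls rest on single libraries: Gclc was lost without young LPS 1 or young LPS 2 (adjusted p = 0.0895, 0.0932), Glrx without young LPS 1 (adjusted p = 0.0784), and Nfe2l2 without young control 1, young control 2, young LPS 1, young LPS 2, old control 1, old control 2 or old LPS 1 (adjusted p = 0.0812, 0.0757, 0.145, 0.339, 0.077, 0.0821, 0.0619) and with DESeq2 (adjusted p = 0.184). The count went from 3 to 0 without young LPS 1, 1 without young LPS 2, 6 without old LPS 1 and 9 without old LPS 2.

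The LPS effect itself differed with age for 1 of the 32 genes (0.648% of all genes, 0.307% higher and 0.342% lower). For Gclc the old effect minus the young effect was 0.76 ± 0.14 (adjusted p = 0.0188) on the log2 scale. The call was lost without young control 1, young control 2, young LPS 1, young LPS 2 or old control 1 (adjusted p = 0.155, 0.178, 0.1, 0.0765, 0.183) and when the classes were rebuilt without these genes (0.71, adjusted p = 0.0827). For Nfe2l2 the difference was 0.55 ± 0.13 (adjusted p = 0.0815), and for Glrx -0.35 ± 0.13 (adjusted p = 0.381), so neither effect was shown to differ with age. Without old LPS 2, 5 genes passed: Gclc, Nfe2l2 (0.62), Gpx2 (1.05), Cat (-0.75) and Sod2 (0.49). Without old LPS 1, 3 passed.

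**Figure D3:**
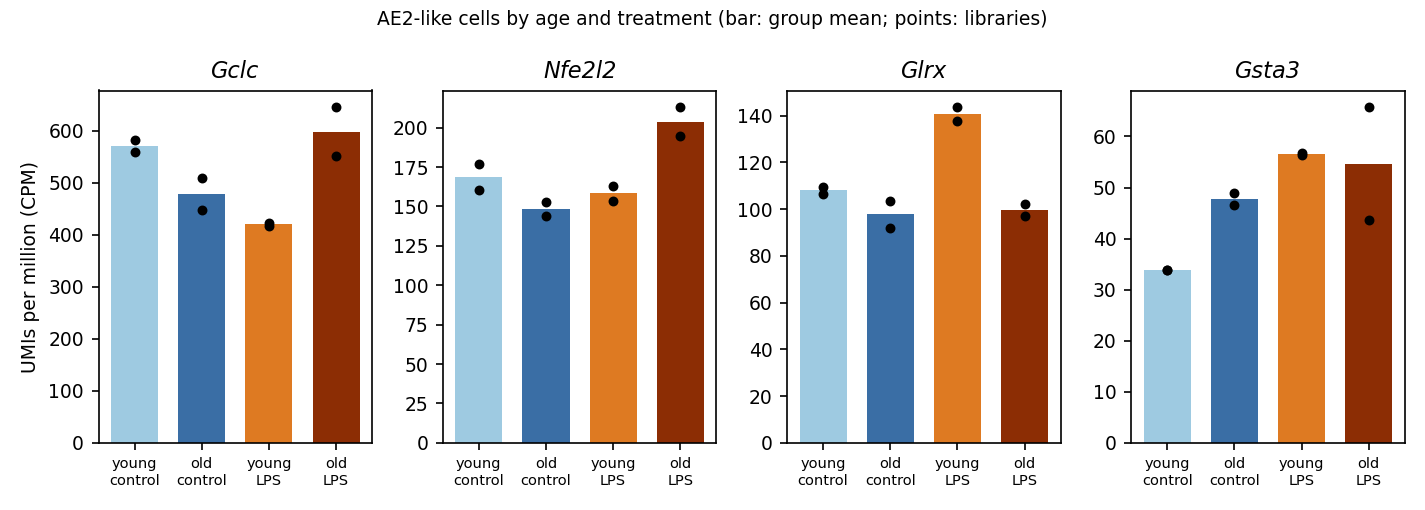
CPM of Gclc, Nfe2l2, Glrx and Gsta3 in AE2-like cells; bars are the mean of 2 libraries, points the libraries, the vertical axis starts at 0. Gclc is lower in young LPS than in the other 3 groups, Glrx is higher in young LPS, and the 2 old LPS points of Gsta3 lie apart, at 65.7 and 43.6 CPM.

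Within AE2-like cells the levels differed between clusters, given as a description because clusters were drawn from the same cells. Among LPS cells Sod2 was at 2297 CPM in the Gbp2 and Cxcl10 cluster, 2284 in the Csf3 and Cxcl2 cluster and 1075 in the Itih4 cluster. In the 448 LPS cells of cluster 5, of which 267 came from old LPS 2, it was at 182 CPM, close to the 170.2 CPM of the control cells of that cluster. Prdx6 differed: LPS cells of cluster 5 were at 1196 CPM and control cells of the same cluster at 575 CPM, so its level was higher also where Sod2 was not. Gclc was lower in LPS than control cells of cluster 5 (267 and 523 CPM). Cat and Gstm1 were at 100.2 and 13.8 CPM in the Csf3 cluster and at 373 and 80.1 in LPS cells of cluster 5. The clusters mix the libraries unevenly: of the 521 cells of the Csf3 cluster, 322 came from old LPS 1 and 185 from old LPS 2.

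In ciliated-like cells 12 of these genes moved with LPS, led by Gpx2, Prdx5 and Mgst1 upward and by Nqo1 and Cat downward. There were 52 to 266 cells per library; 99.0% of control cells lay in cluster 10 and 10.6% of LPS cells did, with 26.7% of the cells of old LPS 2. Of 30 genes tested, over both ages, 8 were higher and 4 lower (9.61% and 7.71% of all 7907 genes, 17.3% in either direction), and all 12 moved the same way in both lanes and at both ages. As the 12 were called from these same libraries, that agreement is a description and no separate support. The median log2 fold change of the 30 was 0.12, and that of all genes -0.012. Sod3, Gpx3, G6pdx and Slc7a11 did not pass the filter. Club markers, at 2705 to 17857 CPM, and AE2 markers, at 3825 to 20037 CPM, were present in the ciliated sums and did not separate by treatment. Alveolar macrophage markers (10 genes, 3 at 0) were at 435 to 567 CPM in control and 615 to 678 in LPS libraries, and neutrophil markers (9 genes, 4 at 0) were at 37.5 CPM in old LPS 1 and at most 3.70 in the other 7 libraries. Monocyte and macrophage markers (10 genes, 2 at 0) were at 0 to 11.1 CPM over the 8 libraries, with overlapping groups. Their part was not tested.

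Gpx2 (chr12:76792333-76795554), the glutathione peroxidase that was at 8.66 to 23 CPM in AE2-like cells, had the largest fitted rise of the 30. It was at 216 and 291 CPM in young control 1 and 2, 1345 and 1398 in young LPS, 228 and 246 in old control and 1896 and 842 in old LPS. All LPS libraries were above all controls, with 1896 CPM in old LPS 1 and 842 in old LPS 2 as the extremes. On the log2 scale the change was 2.51 ± 0.34 (adjusted p = 0.0119). The call was lost without young control 1, young control 2, young LPS 1, young LPS 2, old control 1 or old control 2 (adjusted p = 0.0741, 0.0502, 0.0529, 0.0528, 0.0763, 0.0573). Within lanes the log2 difference was 2.85 in lane 1 and 2.02 in lane 2.

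Prdx5 was at 1271 and 1235 (young control), 3077 and 2846 (young LPS), 1366 and 1391 (old control) and 2804 and 2419.9 CPM (old LPS). It rose by 1.08 ± 0.083 on the log2 scale (adjusted p = 1.19e-11), with no overlap. Mgst1 was at 525 and 619 (young control), 1459 and 1101 (young LPS), 589 and 649 (old control) and 1381 and 1039.8 CPM (old LPS). It rose by 1.08 ± 0.11 (adjusted p = 1.99e-08). Gsr was at 209.5 and 195 (young control), 334 and 388 (young LPS), 211 and 242 (old control) and 381 and 325 CPM (old LPS) and rose by 0.74 ± 0.11 (adjusted p = 5.03e-06). For all 3 the 4 LPS libraries were above the 4 controls, and the calls held without any 1 library.

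Glrx, at 21.97 and 16.6 (young control), 34.7 and 27.3 (young LPS), 10.5 and 21.4 (old control) and 34.3 and 32.9 CPM (old LPS), rose by 0.98 ± 0.29 (adjusted p = 0.0171), a call lost without young LPS 1 or old control 1 (adjusted p = 0.107, 0.269). Gsta3, at 35.5 and 33.1 (young control), 54.02 and 49.2 (young LPS), 42.1 and 39.2 (old control) and 83.2 and 52.9 CPM (old LPS), rose by 0.69 ± 0.22 (adjusted p = 0.0249), lost without young control 1, young LPS 1, old control 1 or old LPS 1 (adjusted p = 0.0866, 0.107, 0.0817, 0.229). Gclc, at 223 and 305 (young control), 257 and 382 (young LPS), 254 and 218 (old control) and 386 and 336 CPM (old LPS), rose by 0.44 ± 0.13 (adjusted p = 0.0135), lost without young control 1, young LPS 2 or old control 2 (adjusted p = 0.127, 0.117, 0.0552). Its groups overlapped. Glrx and Gclc were also lost without the cells of highest doublet score (adjusted p = 0.0971 and 0.0596). Sod2, at 517 and 474 (young control), 546 and 552 (young LPS), 420.2 and 325 (old control) and 461 and 568 CPM (old LPS), was called by a small margin (0.28 ± 0.10, adjusted p = 0.049) with overlapping groups. That call was lost without young control 1, young control 2, young LPS 1, young LPS 2, old control 2 or old LPS 2 (adjusted p = 0.0652, 0.11, 0.101, 0.0877, 0.237, 0.142), with the lane as a block (0.28, adjusted p = 0.052), and the value was 0.007 (adjusted p = 0.979) without the cells of highest doublet score.

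Cat fell in ciliated-like cells as well, and was at 221 and 285 (young control), 164 and 158 (young LPS), 336 and 310.2 (old control) and 131 and 164 CPM (old LPS) (log2 fold change -0.89 ± 0.12, adjusted p = 1.32e-06). Gstm1, at 1559.5 and 1553 (young control), 1080.5 and 1032 (young LPS), 1778 and 1794 (old control) and 822 and 1094 CPM (old LPS), fell by 0.73 ± 0.09 on the log2 scale (adjusted p = 2.31e-07). Prdx2, at 363 and 374 (young control), 278 and 235 (young LPS), 391 and 349 (old control) and 279.6 and 297 CPM (old LPS), had a log2 fold change of -0.45 ± 0.10 (adjusted p = 0.0018). In these 3 genes LPS and control libraries did not overlap. Nqo1, at 13.5 and 19.9 (young control), 15.4 and 10.9 (young LPS), 39.8 and 49.9 (old control) and 13.5 and 8.58 CPM (old LPS), was called lower (-1.03 ± 0.34, adjusted p = 0.0321). Its groups overlapped, with the young controls close to the LPS libraries and both old controls above them. The log2 difference was -0.34 in young and -2.03 in old mice. The call was lost without young control 1, young control 2, young LPS 1, young LPS 2, old control 1, old control 2 or old LPS 2 (adjusted p = 0.0687, 0.12, 0.0533, 0.0951, 0.0653, 0.061, 0.058). Prdx6, which rose in AE2-like cells, was at 827 to 1119.8 CPM here and was not called (-0.22 ± 0.089, adjusted p = 0.0859). Without the cells of highest doublet score it was called lower (-0.34, adjusted p = 0.00601). DESeq2 called 6 of the 12, and not Glrx, Gsta3, Gclc, Sod2, Nqo1 or Prdx2.

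Between old and young ciliated-like cells, over both treatments, 0 of 30 genes were called by edgeR (0.62% of all genes were); 6 had an unadjusted p under 0.05, DESeq2 called 0, and 1 was called without old LPS 1. The LPS effect differed with age for 0 of 30 (0.24% of all genes); 5 had an unadjusted p under 0.05 and DESeq2 called 0.

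**Figure D4:**
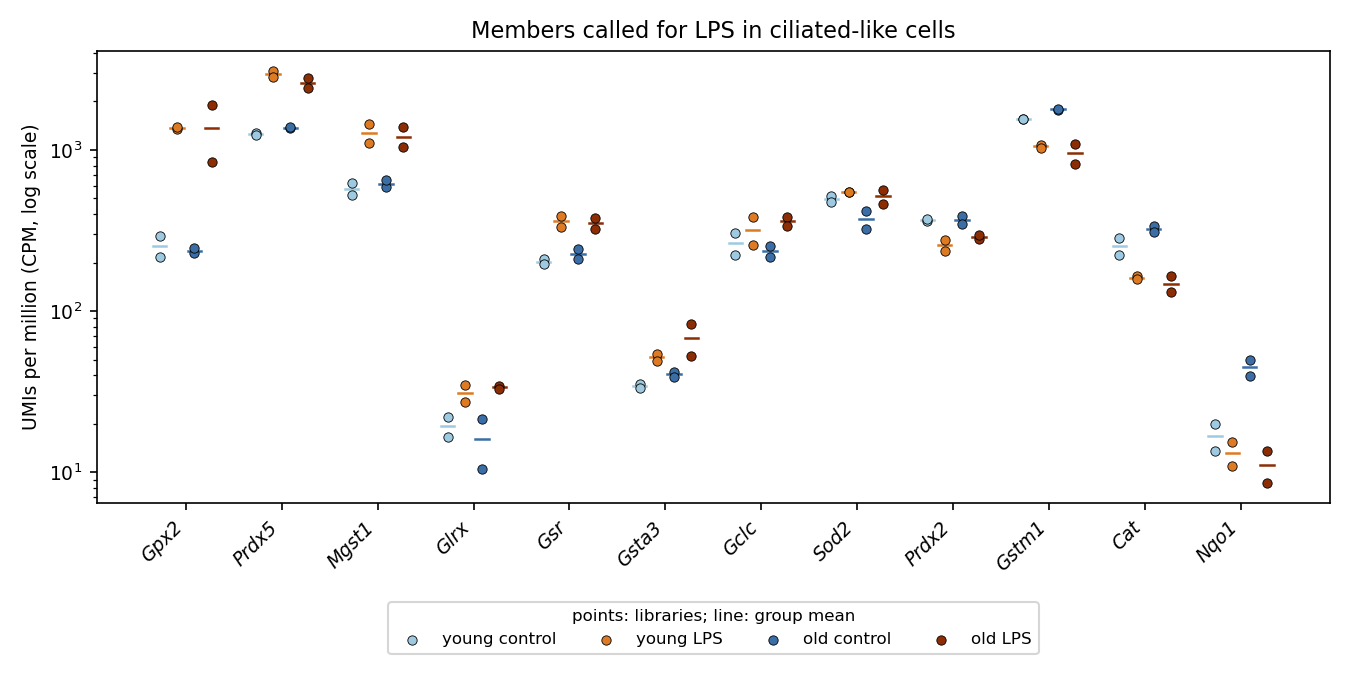
CPM (log axis) of the 12 genes called for LPS in ciliated-like cells, 1 point per library, ordered by log2 fold change. Gpx2 lies between 216 and 291 CPM in control and between 842 and 1896 in LPS libraries, and Cat, Gstm1 and Prdx2 lie lower in every LPS library than in every control library.

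Club-like cells were few. Libraries with fewer than 10 such cells (young control 2, young LPS 2 and old control 2) were left out, so 3 of the 4 groups had 1 library, assumed to vary like old LPS, and the fit had 1 residual degree of freedom. Of 27 genes tested 1 was called for LPS, over both ages (3.56% of 3283 genes were called higher and 0.853% lower, 4.42% in all), and 13 had an unadjusted p under 0.05. Sod2 was at 99.4 in young control 1, 143 in old control 1, 546 in young LPS 1, and 769 and 590.5 CPM in old LPS 1 and 2. This was a log2 change of 2.35 ± 0.29 (adjusted p = 0.00498). Both control libraries were below the 3 LPS libraries. No other gene passed the test: Gstm1 was at 445 in young control 1, 448 in old control 1, 81.5 in young LPS 1, and 83.5 and 209 CPM in old LPS 1 and 2 (-2.05 ± 0.44, adjusted p = 0.0708), and Gpx2 at 119 in young control 1, 167 in old control 1, 452 in young LPS 1, and 503 and 234 CPM in old LPS 1 and 2 (1.54 ± 0.40, adjusted p = 0.094). The count depends on the scaling: with the 10 most abundant genes left out of it, or with RLE size factors, 8 genes were called, among them Gstm1, Cat, Gclm and Gsta3 as lower and Gpx2, Gsr and Slc7a11 as higher. Slc7a11 had 0 UMIs in old controls and 47 in old LPS club-like cells, at least 3.31-fold higher against a floor of 3 counts over the group. It passed the filter on low counts there only through LPS libraries. Monocyte and macrophage markers (10 genes, 1 at 0) summed to 318 CPM in young LPS 1 and at most 11.7 in the other 7 libraries of club-like cells. Neutrophil markers (9 genes, 5 at 0) summed to 0 to 14.1 CPM in the 4 control and 14.2 to 60.8 in the 4 LPS libraries of club-like cells, and their part was not tested. The 10 genes with the highest counts took 59.8 to 69.3% of the UMIs of club-like libraries. Neither age nor the difference of the LPS effect with age was called for any of the 27 by edgeR (0.0% of all genes were called in each); 1 and 0 had an unadjusted p under 0.05, and DESeq2 called 0 in both.

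The difference between classes was tested directly, as the LPS effect in ciliated-like minus that in AE2-like cells of the same libraries. Of 32 genes, 6 were called with the higher effect in ciliated-like and 9 with the higher effect in AE2-like cells (8.64% and 6.51% of 12252 genes, 15.1% in all). The median difference was -0.187 over the 32 and 0.094 over all genes, so small differences are to be read beside 0.094. The edgeR fit could take the spread of a gene wholly from the trend over genes. Its lowest adjusted p among these genes was 1.59e-113 on 4 residual degrees of freedom, so its p-values are likely too small. A limma fit on the per-library class difference, chosen after seeing the data, was added, with its adjusted p in parentheses after each difference. It called 14 of the 15, all but Prdx2 (limma adjusted p = 0.063). Sod2 had the largest difference, -2.88 ± 0.12 on the log2 scale (limma adjusted p = 2.31e-06), followed among genes with the higher effect in AE2-like cells by Prdx6, -1.97 ± 0.12 (0.000122), and Txnip, -1.11 ± 0.12 (0.000348). Keap1 (-0.80 ± 0.21, limma adjusted p = 0.012), Prdx3 (-0.78 ± 0.20, 0.0123), Gsta4 (-0.69 ± 0.12, 0.00167) and Gclm (-0.55 ± 0.14, 0.0342) followed. On the other side, Gpx2 had a difference of 2.18 ± 0.16 (1.06e-05), Prdx5 of 0.79 ± 0.11 (0.000261) and Gclc of 0.60 ± 0.13 (0.029). Gstm1 fell in both classes and less in ciliated-like cells (1.00 ± 0.12, 0.000534).

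The edgeR calls of Glrx, Mgst1, Prdx2 and Txn1 were each lost without 1 or another library: Glrx without young control 1, young control 2, young LPS 1, young LPS 2, old control 1 or old LPS 1 (adjusted p = 0.0684, 0.105, 0.222, 0.0578, 0.388, 0.0681), Mgst1 without young control 1, young LPS 1, old control 1 or old control 2 (adjusted p = 0.199, 0.219, 0.0976, 0.0879), Prdx2 without young control 1, young control 2, young LPS 1, young LPS 2, old control 1 or old LPS 1 (adjusted p = 0.0711, 0.0958, 0.0673, 0.135, 0.251, 0.0928) and Txn1 without young control 1, young LPS 1, old control 1, old control 2 or old LPS 1 (adjusted p = 0.147, 0.253, 0.0724, 0.182, 0.0563). For Cat the difference was 0.35 ± 0.14 (adjusted p = 0.0659) and for Gsr 0.12 ± 0.14 (adjusted p = 0.669), and neither was called. For club-like minus AE2-like cells edgeR called 7 of 33 genes (0.809% and 0.493% of 11369 genes were called higher and lower, 1.3% in all), and limma called 0 of the 33 and 0 of all genes. The largest of the 7 were Prdx6, -2.29 ± 0.21 (limma adjusted p = 0.0787), and Txnip, -2.18 ± 0.30 (0.0779). So the differences from club-like cells rest on the spread taken over genes. Their median was -0.05 over the 33 and 0.272 over all genes.

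**Figure D5:**
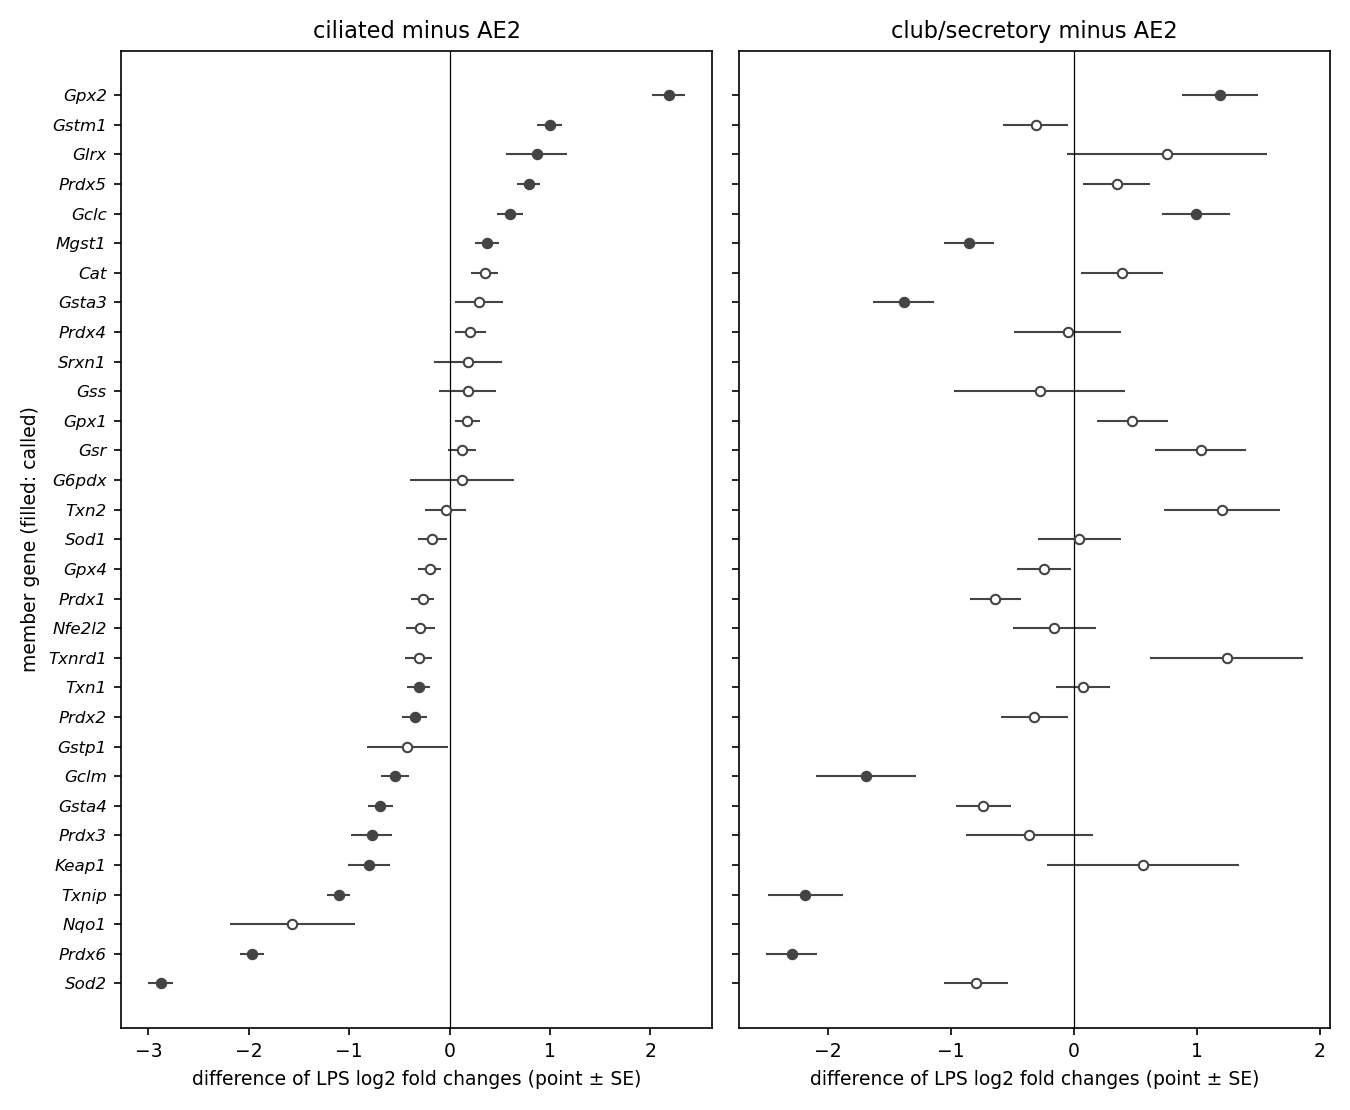
Difference of the LPS log2 fold change between classes, ciliated-like minus AE2-like on the left and club-like minus AE2-like on the right; points are edgeR estimates, bars 1 SE, filled points were called by edgeR, and genes with an SE above 1 are left out. Sod2 at -2.88 and Gpx2 at 2.18 are the ends of the left panel.

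Other genes of the pathway, in 8 lists of 139 genes that were chosen with earlier results of these data known, were counted in the same fits. Their counts are to be read beside the shares of all genes called after LPS in AE2-like cells, 21.8% higher and 18.2% lower in young and 25% and 23% in old mice. Among 14 tested regulators of NRF2, 6 were higher and 1 lower in young, and 5 and 4 in old LPS AE2-like cells; Maff, a small MAF partner of NRF2, had log2 fold changes of 0.79 ± 0.17 and 1.61 ± 0.17 in young and old mice. Of 22 further NRF2 target genes, 6 rose and 5 fell in young and 11 and 5 in old mice. Fth1, the ferritin heavy chain that stores iron, rose by 3.67 ± 0.12 and 3.93 ± 0.12, and Akr1b8, an aldo-keto reductase, by 1.78 ± 0.18 and 1.94 ± 0.17, while Ephx1, the microsomal epoxide hydrolase, had -1.40 ± 0.16 and -1.02 ± 0.14. The medians of these lists were -0.020 and -0.064, and 0.068 and 0.34, beside -0.011 over all genes. Hmox1, heme oxygenase 1, was lower in old than young controls, at 42.02 and 44.5 CPM against 66.6 and 70.5 (-0.67 ± 0.10, adjusted p = 0.00512), a call lost without young control 2 or old control 1 (adjusted p = 0.3 and 0.149). In young mice the shares of target genes called in each direction, 6 and 5 of 22, were near those of all genes.

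The next 4 lists stand beside the same shares of all genes (21.8% higher and 18.2% lower in young, 25% and 23% in old mice), and several of their counts are near them. Of 20 further glutathione genes, 6 were higher and 4 lower in young and 3 and 6 in old mice; Ggct, which breaks down gamma-glutamyl peptides, rose by 1.72 ± 0.14 and 1.47 ± 0.13 and Mgst3 by 1.06 ± 0.12 and 1.21 ± 0.12. Of 19 thioredoxin and repair genes, 6 were higher and 4 lower in young and 9 and 6 in old mice, among them Msrb1, a methionine sulfoxide reductase, at 0.81 ± 0.13 and 1.16 ± 0.13 and Txnrd3, another thioredoxin reductase, at -1.12 ± 0.17 and -1.35 ± 0.17. Peroxidase and selenoprotein genes numbered 13, with 5 higher and 4 lower in young and 4 and 5 in old mice, among them Sephs2, of selenium supply, at 1.08 ± 0.14 and 1.09 ± 0.13 and the paraoxonase Pon1 at -2.42 ± 0.38 and -2.22 ± 0.36. Of 15 genes of NADPH supply, 3 were higher and 5 lower in young and 7 and 6 in old mice, with Nadk, the NAD kinase, at 0.84 ± 0.10 and 1.02 ± 0.10 and Mthfd1, of folate metabolism, at -1.02 ± 0.14 and -1.39 ± 0.14.

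The lists with the highest medians were oxidant-producing enzymes and metal-binding proteins. Of 21 oxidant-producing enzymes, 10 were tested, with medians of 2.52 in young and 2.46 in old mice. Of these 10, 7 were higher and 1 lower in young and 7 and 2 in old mice. Of 8 metal-binding proteins, 6 were tested, with medians of 1.85 and 2.46, and 4 were higher and 0 lower at each age. The medians leave out the genes that did not pass the filter on low counts. Cyba, the p22phox subunit of NADPH oxidases, rose by 2.87 ± 0.12 and 3.15 ± 0.12, Noxo1, an organiser of NADPH oxidase, by 3.16 ± 0.12 and 3.56 ± 0.12, and Xdh, xanthine dehydrogenase, by 2.17 ± 0.12 and 2.26 ± 0.11. Cp, the copper-binding ferroxidase ceruloplasmin, rose by 5.61 ± 0.19 and 5.25 ± 0.17. In ciliated-like cells Cp (4.37 ± 0.13), Akr1b8 (1.75 ± 0.15), Noxo1 (2.16 ± 0.24), Cyba (1.61 ± 0.14) and Fth1 (0.96 ± 0.075) rose too, and 6 of 20 further NRF2 targets were higher and 3 lower. Over all genes 9.61% were higher and 7.71% lower in these cells. Of the other lists there, 0 were higher and 1 lower of 13 regulators, 2 and 2 of 15 glutathione genes, 0 and 1 of 13 thioredoxin and repair genes, 1 and 2 of 12 peroxidase and selenoprotein genes, 5 and 0 of 12 of NADPH supply, 2 and 0 of 3 oxidant-producing enzymes and 3 and 1 of 6 metal-binding proteins. Among the genes counted higher, Idh1 was at 4.68 to 7.13 CPM and Ltf at 0 to 1.69 CPM in ciliated-like controls. Both passed the filter on low counts there only through LPS libraries. Noxo1, at 7.13 to 25.3 CPM in these controls, also needed LPS libraries to pass it. Fth1 and Ftl1 stand in both the target and the metal-binding list, and Me1, Pgd, Tkt, Taldo1 and Idh1 in both the target and the NADPH list. So these lists are not separate, and in ciliated-like cells Idh1 and Taldo1, called higher, were counted in both. Cyba is also known from phagocytes, whose markers are given above for both classes, and their part was not tested.

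As a description with no test, the classes differed in which of these genes were abundant. UMIs were pooled here over the libraries of a treatment, and old LPS 1 gave 266 of the 518 ciliated-like cells of the LPS libraries. In control libraries Gstm1 was at 1740.3 CPM in ciliated-like and 69.1 in AE2-like cells, Gclm at 404 and 24.98, Prdx5 at 1367 and 181, and Gpx2 at 245 and 10.1. Gclc stood the other way, at 256 CPM in ciliated-like and 526 in AE2-like control cells, so that the 2 subunits of 1 enzyme had opposite orders. Sod2 was at 458 CPM in ciliated-like controls and 177 in AE2-like controls, and at 494 and 1685 after LPS, so the order of the classes turned. In LPS libraries club-like cells had the highest Mgst1 of the 3 classes, at 2076 CPM, beside 1250.2 in ciliated-like and 1136 in AE2-like cells. Nqo1 was at 31.6 CPM in ciliated-like controls, and after LPS at 12.1 in ciliated-like, 4.68 in club-like and 1.25 in AE2-like cells. Prdx6 in AE2-like cells moved from 442 to 1572 CPM, and in ciliated-like cells it was at 1068 and 859.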

How the data were processed

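The authors deposited raw UMI counts per gene and cell, 1 table per lane and hashtag group; the submitters' processing notes list the build mm10 and, with no roles, R 3.6.3, bcl2fastq, Seurat (3.1 and 3.1.5), STAR and Cell Ranger 3.1.0; how hashtags were assigned is not given in the sources used here. The 4 hashtag rows were left out. Cells were filtered (2803 barcodes removed, 12.1 to 34.7% per library), clustered with scanpy 1.11.5 and leidenalg 0.10.2 (2000 variable genes, 30 components, 20 neighbours, resolution 1), and clusters named from markers; rebuilt names can differ from the study's. Counts summed per library and class were tested with edgeR 4.0.16 (filterByExpr, TMM, robust quasi-likelihood, 4 residual degrees of freedom in AE2-like and ciliated-like cells, Benjamini-Hochberg over all genes); fold changes are log2, and SE is |log2 fold change| divided by the root of F, approximate. Each lane was 1 experiment per the labels; same-lane libraries' deviations correlated by -0.0252 to 0.135 (median 0.0284) in AE2-like and -0.00433 to 0.0594 in ciliated-like cells. Alternatives were RLE factors, scaling without the 10 most abundant genes, DESeq2 1.42.0, limma 3.58.1, no count filter, a lane block, stricter cell filters, doublet scores, other clusterings and leaving out each library. Gene symbols came from GENCODE M21 (30934 of 31053 matched). The genes and lists were chosen with earlier results of these data known. All 34 genes are accounted for: called genes are given with values or UMIs by library, in some comparisons more than the 12 the naming rule set, and of each list up to 4 called genes of the largest change, at 20 CPM or more in 1 group; others are named as chosen after their values were seen. On simulated counts, edgeR recovered 86.9% of 2-fold and 42.9% of 1.5-fold changes in AE2-like cells (11253 genes), 71.4% and 43.8% in ciliated-like (7808 genes) and 38.1% and 8.43% in club-like cells (2994 genes). For ciliated-like minus AE2-like it recovered 48% of 2-fold changes. Every class was simulated with a spread near that of AE2-like libraries (edgeR coefficient of variation 0.0883). The data had 0.109 in ciliated-like and 0.214 in club-like cells, so recovery there is likely overstated. Intervals cover counting error only.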

Additional observations from a re-analysis of the deposited data

Results flagged for a closer look

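A test of the difference itself passed for 1 gene between ages: in AE2-like cells the LPS effect on Gclc was 0.76 higher on the log2 scale in old than in young mice, falling in the young and rising in the old. Its call rested on 5 of the 8 libraries.

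Between ciliated-like and AE2-like cells the LPS effect differed for 15 genes in edgeR. The log2 difference, ciliated minus AE2, was positive for Gpx2 (2.18), Gstm1 (1.00), Glrx (0.87), Prdx5 (0.79), Gclc (0.60) and Mgst1 (0.37), and negative for Sod2 (-2.88), Prdx6 (-1.97), Txnip (-1.11), Keap1 (-0.80), Prdx3 (-0.78), Gsta4 (-0.69), Gclm (-0.55), Prdx2 (-0.35) and Txn1 (-0.31). Limma called 14 of the 15.

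Between club-like and AE2-like cells it differed for 7 genes in edgeR. The log2 difference, club minus AE2, was positive for Gpx2 (1.19) and Gclc (0.99), and negative for Prdx6 (-2.29), Txnip (-2.18), Gclm (-1.69), Gsta3 (-1.38) and Mgst1 (-0.85). Limma called 0 of the 7. No cause of these differences was tested.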

How the results depend on the processing

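Over 79 gene results and 1268 alternatives, 1137 kept the direction and the side of the threshold, 131 kept the direction and lost the call, and 0 reversed; 45 results held in all. In the counts of called genes, old against young AE2-like controls (0 genes) gave 2 with no filter on low counts and 0 to 2 without 1 library; after LPS (3 genes) it gave 7 with no filter and 0 to 9 without 1 library; the difference of the LPS effect with age (1 gene) gave 3 with no filter, 0 when clustered without these genes and 0 to 5 without 1 library. LPS in ciliated-like cells (12 genes) gave 6 with DESeq2 and 7 to 11 without 1 library, 7 without young control 1 or young LPS 1; age there (0 genes) gave 0 to 1 without 1 library. LPS in club-like cells (1 gene) gave 8 with RLE factors, 8 with the 10 most abundant genes left out of the scaling, 2 with DESeq2, 6 with no filter, 5 with stricter cell filters, 5 without the highest doublet scores and 8 with every library kept. Club minus AE2 (7 genes) gave 0 with limma. The cause was not tested. With the lane as a block, AE2-like cells gave 22 (young LPS), 20 (old LPS), 0 (age, control), 3 (age, LPS) and 1 (difference with age), and ciliated-like cells 11, 0 and 0; beyond Gclm, Gstp1 and Sod2 in ciliated-like cells, it changed no other call among the 34 genes. The block and the leaving out of 1 library could not be fitted in club-like cells. Depth limits genes near 1 CPM (Nqo1, Sod3, Gpx3 and Slc7a11 in AE2-like cells).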
